A study of Rattus norvegicus with 12 samples.

Results

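Il10, the gene of the anti-inflammatory cytokine interleukin-10, was examined in CD4+ T cells of the rat, as 1 gene row (ENSRNOG00000004647) of 32754. The gene was chosen by measured values of these same libraries, namely a level near 0 in blood and a highest level outside the third parenchyma library. Its levels are therefore a description, and no test was made on them. The count files do not pair identifiers with gene names, so the symbol is the one given for this identifier when the gene was chosen, and the files do not check it.

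Cells of LEW/Crl (Lewis) rats were sorted and their RNA sequenced in 12 libraries, 3 per group. The groups were wild-type cells from blood, and cells carrying a transgenic β-synuclein T cell receptor (b-syn TCR Tg) from blood, from the meninges, which are the membranes that enclose the brain, and from the parenchyma, the tissue of the brain proper. The series design gives the time of sorting as day 3 after intravenous transfer of the T cells for every group. Titles of the parenchyma libraries end in the digit 4 where the tissue codes of the other 9 carry a 3, and no source used here gives its meaning. If it marks a day, tissue and day cannot be told apart in any comparison with the parenchyma. No source used here gives the age of the animals, the recipients of the transfer or any pooling of animals.

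Interleukin-10 is a secreted homodimer that binds a receptor of a ligand-specific chain, Il10ra, and a chain shared with related cytokines, Il10rb. The receptor acts through the kinases Jak1 and Tyk2 and the transcription factor Stat3, and in macrophages and dendritic cells this lowers antigen presentation and inflammatory cytokine output. Among CD4+ T cells, Il10 is made by Foxp3 regulatory T cells, by type 1 regulatory cells and by effector cells under repeated stimulation. Macrophages, microglia and B cells can transcribe it too. In autoimmune inflammation of the central nervous system, interleukin-10 is known for restraining disease.

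In the RefSeq annotation of the rat (assembly GRCr8), Il10 lies on chromosome 13 and has 3 transcripts. Its nearest annotated neighbours are Il19, another cytokine of the interleukin-10 family, the transfer RNA gene Trnag-ucc11 and the pseudogene LOC134481490 on one side. Mapkapk2, a stress-activated kinase gene, the long non-coding RNA gene LOC134481555 and the kinase gene Dyrk3 lie on the other. In that annotation 0 genes overlap Il10, on either strand, which bears on the counts because no source used here gives the strand setting of the counting. No coordinates are printed, since the counts were made on another build, rn6.

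Library totals ran from 16643832 to 38601400 counts, so that a single count stood for between 0.0259 and 0.0601 CPM (the count divided by the library total and multiplied by 1000000). Between 14409 and 17095 genes had at least 1 count. Replicates of a group all differed by more than sampling noise, the lowest chi-square per degree of freedom between any pair being 13.9. The labels do not state that replicates are from separate animals, so the spread between them may be technical. The labels name a TruSeq kit and a low-input NEBNext kit but do not assign them to libraries, so the kit cannot be told apart from the group. The T cell identity of the sorted cells could not be checked against marker genes, because the files do not name genes. For the same reason the receptor chains, signalling genes and transcription factors of the Il10 pathway are not analysed here.

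In the blood, Il10 was close to the limit of detection in both genotypes. Wild-type blood held 6, 0 and 0 counts in replicates 1, 2 and 3, and transgenic blood held 2, 2 and 0 counts. Expressed as CPM, the highest wild-type library stood at 0.155 (exact Poisson 95% interval 0.0570 to 0.338) and the highest transgenic library at 0.0979 (0.0119 to 0.353). For the libraries with a count of 0, the limit used is 3 counts, which is one-sided and stands at 0.0823 and 0.1001 CPM in wild-type replicates 2 and 3 and at 0.178 CPM in transgenic replicate 3. The upper ends of the two-sided Poisson intervals there are 0.101, 0.123 and 0.219 CPM. These intervals and limits, here and below, cover counting error only. The genotypes overlapped in blood: 0.0518 ± 0.0897 CPM in wild-type cells and 0.0640 ± 0.0555 CPM in transgenic cells (SD, n = 3). The ratio of pooled counts, transgenic over wild-type, was 1.20 with an exact binomial 95% interval of 0.248 to 5.05. That interval pools the libraries of each genotype, and all 6 wild-type counts fell in replicate 1. With so few counts and this spread, a difference between the genotypes could not be resolved.

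The blood counts can be set beside what the same depth would give at brain levels. At the level of the lowest parenchyma library, transgenic blood replicates 1, 2 and 3 would have held 194, 187 and 154 counts of Il10. At the level of the lowest meningeal library they would have held 38.8, 37.4 and 30.8 counts. The observed counts were 2, 2 and 0, and a low level in blood was part of the choice of the gene.

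In the meninges, Il10 was present in every library. The counts were 43, 31 and 105 in replicates 1, 2 and 3, or 1.83, 1.86 and 3.20 CPM. Replicates 1 and 2 were nearly equal and replicate 3 was the highest. Its interval (2.61 to 3.87 CPM) lay above that of replicate 1 (1.32 to 2.46 CPM) and met that of replicate 2 (1.27 to 2.64 CPM) only at its edge. The mean was 2.30 ± 0.780 CPM (SD, n = 3). Pooled counts were 35.9 times those of transgenic blood for the same depth (exact binomial 95% interval 13.8 to 133), a ratio that rests on 4 counts in blood.

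In the parenchyma, Il10 reached its highest level. The counts were 279, 553 and 254 in replicates 1, 2 and 3, or 14.6, 25.3 and 9.15 CPM. Replicate 2 stood highest and replicate 3 lowest, and their counting intervals (23.3 to 27.5 CPM and 8.06 to 10.3 CPM) did not meet each other or that of replicate 1 (13.0 to 16.5 CPM). The mean was 16.4 ± 8.22 CPM (SD, n = 3). The ratio of pooled counts to transgenic blood was 231 (exact binomial 95% interval 90.1 to 851), which rests on the same 4 blood counts.

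**Figure D1:**
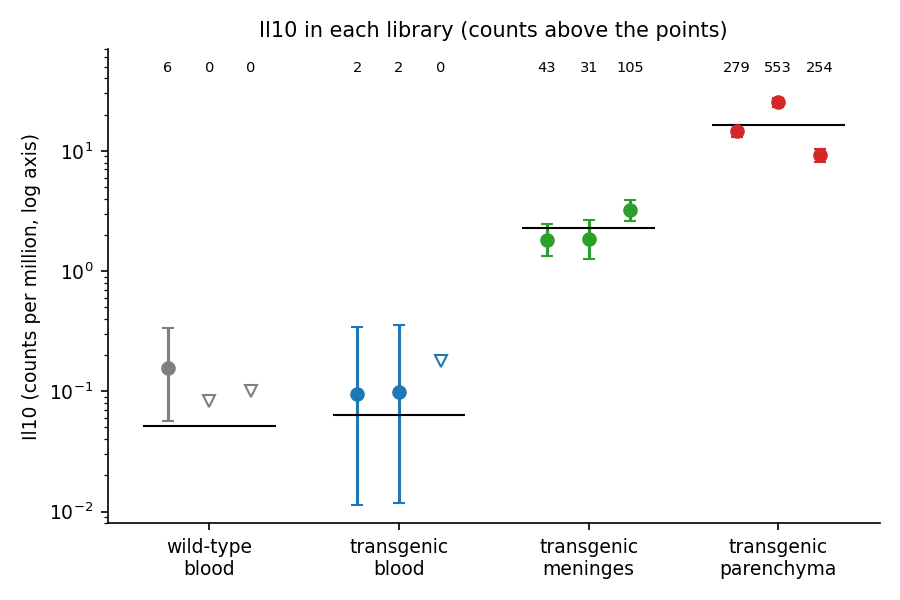
Il10 in each of the 12 libraries in CPM on a log axis, with exact Poisson 95% intervals; open triangles mark the limit that a count of 0 allows, horizontal lines are group means and the numbers at the top are raw counts. The blood libraries hold 0 to 6 counts, the meningeal libraries lie between 1.83 and 3.20 CPM, and the parenchymal ones between 9.15 and 25.3 CPM.

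Ordered by mean level, Il10 thus ran from wild-type and transgenic blood, which did not differ beyond their spread, through the meninges to the parenchyma. The lowest meningeal library lay above the highest transgenic blood library, and among the 12105 genes that passed a filter on low counts this held for 13.4%. Every parenchyma library of Il10 lay above every meningeal one, which held for 20.8% of those genes. Il10 thereby also belonged to the 4.96% of genes that rose at both steps with no overlap of libraries. Parenchyma lay above transgenic blood without overlap in 23.9% of the genes. The blood level was part of the choice of the gene, so nothing is read from these counts about Il10. The gene passed the filter through its brain libraries. In bulk samples, fewer cells that transcribe a gene and less RNA per cell cannot be told apart.

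Il10 rose at both steps, and how the steps compare depends on the scale. The ratio of mean CPM was 35.9 from transgenic blood to meninges and 7.13 from meninges to parenchyma. On the scale of log2(CPM + 0.5), the rise from transgenic blood to meninges was 2.28 (SD of the difference 0.41) and that from meninges to parenchyma 2.51 (SD 0.81). The pseudocount of 0.5 is several times the level in blood and sets much of the first value. With a pseudocount of 0.1 the first step was the larger, at 3.89 against 2.71, and with a pseudocount of 1 the smaller, at 1.61 against 2.31. With the pseudocount of 0.5, larger differences were found in 90 genes at the first step and in 153 genes at the second. At least as large as in Il10 at both steps were 6 other genes, while 121 genes, Il10 included, rose by more than 1 at both. A blood level near 0 was part of the choice of the gene, which favours a high rank. These ranks therefore place Il10 and test nothing. For all 12105 genes the median difference was -0.05 at the first step and 0.07 at the second. These comparisons share the meningeal libraries, so that a low meningeal value makes the first step smaller and the second larger.

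**Figure D2:**
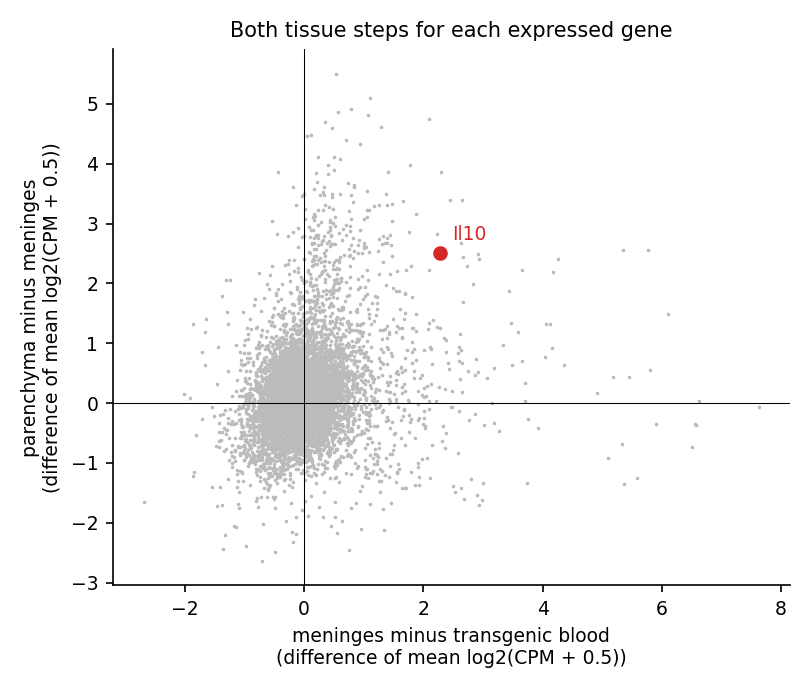
Each point is 1 of 12105 genes, with the difference of mean log2(CPM + 0.5) from transgenic blood to meninges on the horizontal axis and from meninges to parenchyma on the vertical axis. Il10 lies at 2.28 and 2.51, away from the bulk of genes around 0 on both axes, and its low blood level was part of its choice.

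Parenchyma exceeded meninges for Il10 in all 9 pairings of their libraries, by between 2.86 and 13.8 times. The ratio of pooled counts was 6.45 (exact binomial 95% interval 5.502 to 7.598). That interval is narrower than the spread between libraries. Taken by replicate number, the ratio was 8.004 for number 1, 13.6 for number 2 and 2.86 for number 3. The labels do not say that a shared number marks a shared animal or day. Number 3 joined the highest meningeal library to the lowest parenchymal one.

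The parenchyma libraries of Il10 varied more than those of most genes with like counts. Its highest library was 2.77 times its lowest, against a median of 1.38 times in 2889 genes with pooled parenchyma counts within 2-fold of its own, of which 8.20% had a larger ratio. In the meninges the corresponding ratio was 1.75, against a median of 1.46 in 1376 genes of like counts, of which 27.7% had a larger one. A highest level outside parenchyma replicate 3 was part of the choice of the gene. A spread this wide was uncommon but not unique to Il10, since 237 of the 2889 genes had a larger ratio. Of 77 genes nearly absent from transgenic blood, taken up next, 50 were below 1 CPM in replicate 2 despite a mean of at least 5 CPM. Replicate 3 alone could meet that limit on the mean, so the set favours wide spread and is no measure of how common it is.

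Il10 can be set beside the other genes that transgenic blood nearly lacks. A set of 77 genes, Il10 among them, had no more than 3 counts in any transgenic blood library but averaged 5 CPM or more in the parenchyma. The limit is on the mean, so that replicate 3 alone could bring a gene into the set, and 50 of the 77 genes were below 1 CPM in replicate 2. The other 76 together took 567, 156 and 3165 CPM in parenchyma replicates 1, 2 and 3. They took 109, 75.7 and 43.7 CPM in meningeal replicates 1, 2 and 3, and 3.86 CPM at most in any blood library. Il10 had the reverse order in the parenchyma: it was highest in replicate 2, where the sum of the other genes was lowest, and lowest in replicate 3, where that sum was highest. A highest level outside replicate 3 was part of the choice of Il10, and the limit on the mean favours replicate 3 in the other genes. The opposite order in the parenchyma is therefore partly set by these choices and tests nothing. In the meninges, the highest library of Il10, replicate 3, was the one with the lowest sum. Whether cells or RNA other than those of the sorted T cells bear on these levels was not tested, since no marker gene could be named.

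Il10 had 29.8%, 51.6% and 18.6% of its summed parenchyma CPM in replicates 1, 2 and 3. Over the 77 genes the share in replicate 3 had a median of 83.8%, with quartiles of 74.4% and 92.9%. Replicate 3 was the highest library in 72 of the 77 genes, a count that the limit on the mean favours. Of all filtered genes, 29.6% were highest in replicate 3. Only 3 genes of the 77 had a smaller share there than Il10, and no other gene of the 77 had its order of replicate 2 over 1 over 3 (1 gene in all). Over the filtered genes, 17.0% had that order. A gene not highest in replicate 3 was what the choice asked for, so these values place Il10 and test nothing.

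**Figure D3:**
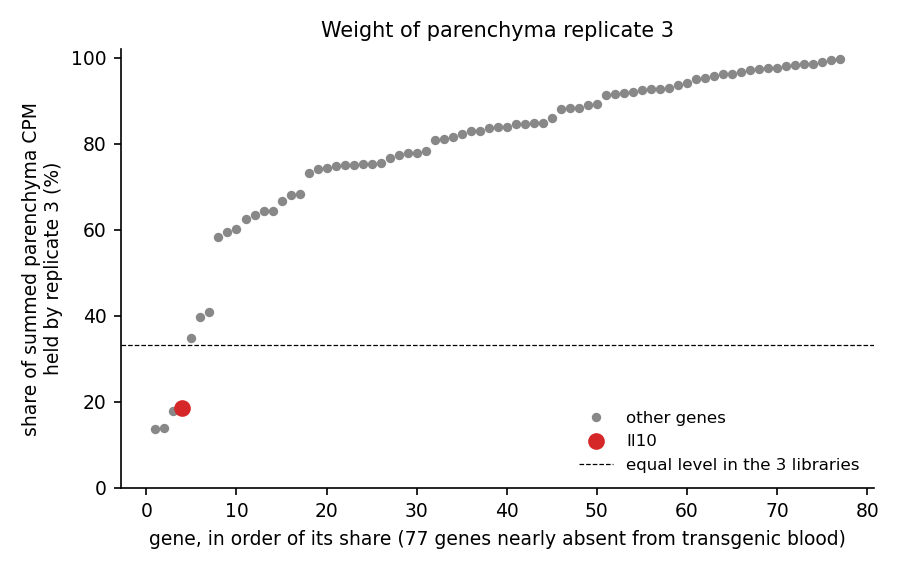
The share of summed parenchyma CPM held by replicate 3, in percent, for the 77 genes nearly absent from transgenic blood, in order of that share; the dashed line marks equal levels in all parenchyma libraries. Il10, at 18.6%, lies among the few genes under the line, while the median is 83.8%.

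Il10 was 1 of 8 genes of the 77 that reached 5 CPM in each parenchyma library. Of these 8 genes, 5 were highest in replicate 3 and 4, Il10 included, had every parenchyma library above every meningeal one. With parenchyma replicate 3 left out, 28 genes met the limits, Il10 among them, and 7 of the 28 were not highest in replicate 3. The other 76 genes made up 0.317% of the counts of parenchyma replicate 3, so their removal from the library total could move Il10 only slightly. With them removed, Il10 stood at 9.18 CPM there instead of 9.15. Any share of other genes in that library was left in place and was not tested.

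The genes with the profile most like that of Il10 were sought among 12104 others over all 12 libraries. Likeness was the mean absolute difference of log2(CPM + 0.5) after each gene was centred on its own mean, so that 0 stands for the same shape whatever the level. The nearest gene, ENSRNOG00000003716, lay at 0.26, and the eighth at 0.44, where the median gene lay at 1.78. The files do not pair these identifiers with names, and of the 8 nearest only the first 2 are printed.

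ENSRNOG00000003716 stood at 0.984, 0.631 and 1.03 CPM in wild-type blood and at 0.754, 0.832 and 0.594 CPM in transgenic blood, in the order of replicates 1 to 3. In the meninges it stood at 2.60, 5.05 and 4.75 CPM and in the parenchyma at 38.1, 51.4 and 32.1 CPM. Its parenchyma libraries had the same order as those of Il10, with replicate 2 highest and replicate 3 lowest, but in the meninges its replicate 1 was lowest and replicate 2 highest. Unlike Il10 it was measured in blood with 43 counts over the transgenic libraries, so its ratio of mean CPM, parenchyma over transgenic blood, of 55.8 does not rest on single counts. The second gene, ENSRNOG00000021345, lay at 0.40 and rose from 16.5 ± 6.05 CPM in transgenic blood to 71.0 ± 19.3 in the meninges and 332 ± 66.5 in the parenchyma (SD, n = 3).

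All 8 nearest genes had meninges above transgenic blood and parenchyma above meninges in every library, which follows from choosing them by shape. The parenchyma libraries divided them: 2 genes were highest in replicate 1, 2 in replicate 2 and 4 in replicate 3. Of the 8 genes, 2 had the order of Il10 and 1 belonged to the 77 genes nearly absent from blood. ENSRNOG00000003716 stayed the nearest without parenchyma replicate 3, over the 9 transgenic libraries alone, with TMM-scaled libraries and with a pseudocount of 1. With a pseudocount of 0.1 it ranked 10, and 2 of the 8 genes remained. ENSRNOG00000021345 was less stable: it ranked 40 with a pseudocount of 1, 17 with 0.1, 7 without parenchyma replicate 3, 4 over the transgenic libraries and 2 with TMM.

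**Figure D4:**
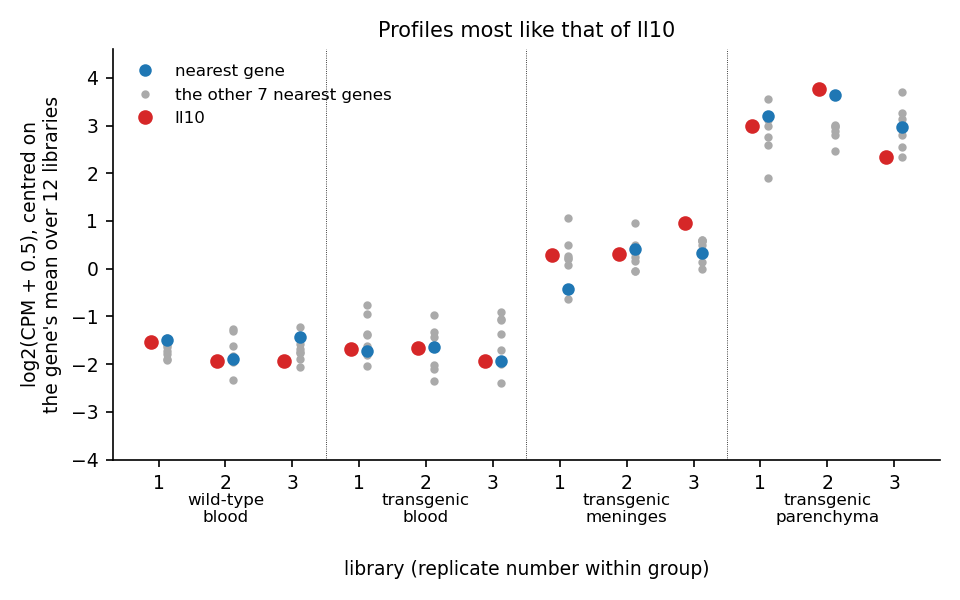
log2(CPM + 0.5), centred on each gene's mean over the 12 libraries, for Il10 (red), its nearest gene ENSRNOG00000003716 (blue) and the other 7 nearest genes (grey), by library within each group. All step up from blood to meninges and again to parenchyma, while Il10 has the widest spread between the parenchyma libraries of the genes shown.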

How the data were processed

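The authors deposited 1 file of whole-number counts per Ensembl gene for each library, with no normalization in the values. Per the submitters' processing notes, the tools were STAR 2.5 and featureCounts 1.5.0-p1, with bcl2fastq 2.17.1.14, DESeq2 1.14.1, FastQC 0.11.5 and R 3.4.2, and the build was rn6. No source used here gives their settings, the strand or the annotation. Groups and replicate numbers came from the titles.

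CPM was the count over the file total. Genes were filtered with filterByExpr of edgeR 4.0.16 (minimum count 10, 4 groups). TMM factors and DESeq2 1.42.0 size factors served as alternative scalings. Python 3.11.15 and scipy 1.17.1 gave the intervals. The code for overlaps and likeness was run on simulated Poisson counts with no added spread between replicates. That run checks the code only, since the real replicates differed by more than sampling noise.

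The gene and all lists and limits were chosen with earlier results of these data known. Tests of 63 Il10 pathway genes, with edgeR's quasi-likelihood model, had been planned. They were not made, because 0 lines of the RefSeq table hold an Ensembl rat identifier. Named genes were to be Il10, its 8 nearest by profile, its 3 annotated neighbours on each side, and list genes; 2 of the 8 are printed.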

Additional observations from a re-analysis of the deposited data

How the results depend on the processing

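Group means of Il10 moved by less than 1 SD between replicates under TMM scaling, DESeq2 size factors and removal of the other 76 blood-absent genes from the total. With 1 library left out of 3, the mean ranged from 0 to 0.0777 CPM in wild-type blood, from 0.0471 to 0.0960 CPM in transgenic blood, from 1.85 to 2.53 CPM in the meninges and from 11.9 to 20.0 CPM in the parenchyma. The wild-type value of 0 arises without replicate 1, which holds all 6 counts. The log2 difference between parenchyma and meninges then ranged from 2.15 to 2.86, and was 2.43 with TMM and 2.45 with DESeq2 size factors. The differences against transgenic blood moved with the pseudocount, which is large against the blood counts. With 0.1 and 1 in place of 0.5 they were 3.89 and 1.61 for the meninges and 6.59 and 3.92 for the parenchyma, against 2.28 and 4.79. The difference between transgenic and wild-type blood, 0.04, changed sign with the library left out (-0.03 to 0.17).

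Of the 8 nearest genes, 6 remained with a pseudocount of 1, 2 with 0.1, 5 over the 9 transgenic libraries, 6 without parenchyma replicate 3 and 8 with TMM. The set of 77 genes numbered 157 at a mean of at least 2 CPM, 41 at 10 CPM, 118 with at most 6 counts in blood and 28 without parenchyma replicate 3, and held Il10 each time. The scalings and limits for the log2 differences and for that set were chosen after seeing the data. With the replicate number as a block, the mean log2 differences are the same by construction (2.28 for meninges and 4.79 for parenchyma against transgenic blood, 2.51 for parenchyma against meninges, 0.04 between genotypes), and their SD over the 3 numbers was 0.53, 0.59, 1.05 and 0.20. Over 12105 genes, deviations of same-numbered transgenic libraries correlated at -0.26 to 0.36, over 0.1 in 2 of 9 pairs. A library correlated best with its own number in 6 of 18 cases. With 3 libraries per group, these values cannot decide whether a shared number marks a shared animal or day. Scaling by T cell identity genes and every planned setting for the pathway genes were not run, since the files do not name genes.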
